A study of Mus musculus with 4 samples.

Results

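The 78 mitochondrial ribosomal protein genes were the protein-coding genes of the count files whose mouse symbol starts with Mrpl or Mrps followed by a digit. Of these, 49 carry an Mrpl symbol, for the large subunit, and 29 an Mrps symbol, for the small subunit, out of 48709 genes in all. A further 5 genes with such a symbol are pseudogenes and were left out. Liver RNA of untreated adult C57BL/6 mice was sequenced as 4 mRNA libraries, 2 labelled WT and 2 labelled DDI2-KO, each described as a biological replicate, and the latter are called the KO-labelled libraries here. Per the methods of the study, DDI2-KO mice carry floxed alleles of Ddi2, a ubiquitin-linked aspartic protease, and Cre recombinase under the albumin promoter. That promoter is active in hepatocytes and leaves the other cells of the liver largely unrecombined. The methods name littermate controls for all mouse experiments. Matings in the study's supplement were between floxed mice with and without Cre, so WT mice are taken here as floxed without Cre. The comparison asks how the transcripts of the mitochondrial ribosome stood in livers labelled as lacking this protease, and whether its large and small subunits stood alike.

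The mitochondrial ribosome sits in the matrix at the inner membrane and translates the few proteins that mitochondrial DNA encodes, all of them membrane subunits of the respiratory chain and ATP synthase. Its ribosomal RNAs come from mitochondrial DNA, while every one of its proteins is encoded in the nucleus, made in the cytosol and imported. The small subunit holds the mRNA and the decoding centre. The large subunit joins amino acids and passes the chain out through an exit tunnel at the membrane. Liver cells are rich in mitochondria.

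The promoters of 5 members are shown, those of the 1 member that passed the test, of 3 large subunit members with high fold changes and of the member with the lowest fold change. They are RefSeq sequences of build GRCm38.p6, each of 300 bases, from 250 bases before the start site to 50 after it, in the direction of the gene. Capitals mark matches to any of 4 motifs searched on both strands, CGCATGCG for nuclear respiratory factor 1, CCGGAAG for the ETS family with GABP, ATGGCGGC for YY1 and TGACNNNGC for the antioxidant response element. Nuclear respiratory factor 1 is another protein than the DDI2 substrate NFE2L1, which is also abbreviated NRF1 and is known for binding antioxidant response elements.
Mrps14 (chr1:160194965-160195264, plus strand): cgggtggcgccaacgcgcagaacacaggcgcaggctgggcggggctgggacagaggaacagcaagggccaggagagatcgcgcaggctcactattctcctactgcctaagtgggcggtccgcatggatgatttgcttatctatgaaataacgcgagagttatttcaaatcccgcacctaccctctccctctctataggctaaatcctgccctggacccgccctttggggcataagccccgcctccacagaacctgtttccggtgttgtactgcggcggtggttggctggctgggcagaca
Mrpl30 (chr1:37890227-37890526, plus strand): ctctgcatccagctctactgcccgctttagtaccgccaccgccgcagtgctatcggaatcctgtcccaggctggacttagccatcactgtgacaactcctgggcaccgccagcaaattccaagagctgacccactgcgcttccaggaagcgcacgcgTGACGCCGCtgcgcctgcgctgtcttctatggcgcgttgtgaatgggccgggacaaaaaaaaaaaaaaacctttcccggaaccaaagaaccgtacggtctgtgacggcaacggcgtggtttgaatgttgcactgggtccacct
Mrpl9 (chr3:94443086-94443385, plus strand): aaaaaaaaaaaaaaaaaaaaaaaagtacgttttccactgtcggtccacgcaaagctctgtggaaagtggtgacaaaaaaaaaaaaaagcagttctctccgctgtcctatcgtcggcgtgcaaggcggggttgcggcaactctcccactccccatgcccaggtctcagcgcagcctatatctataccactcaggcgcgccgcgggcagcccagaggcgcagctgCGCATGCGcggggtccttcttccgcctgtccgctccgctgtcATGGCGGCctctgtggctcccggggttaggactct
Mrpl17 (chr7:105811038-105811337, minus strand): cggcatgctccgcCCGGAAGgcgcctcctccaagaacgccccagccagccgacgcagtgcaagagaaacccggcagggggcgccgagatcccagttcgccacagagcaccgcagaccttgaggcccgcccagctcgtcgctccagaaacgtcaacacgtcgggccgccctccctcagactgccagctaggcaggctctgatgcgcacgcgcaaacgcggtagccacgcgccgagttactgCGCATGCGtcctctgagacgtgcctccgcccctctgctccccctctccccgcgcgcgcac
Mrpl34 (chr8:71464676-71464975, plus strand): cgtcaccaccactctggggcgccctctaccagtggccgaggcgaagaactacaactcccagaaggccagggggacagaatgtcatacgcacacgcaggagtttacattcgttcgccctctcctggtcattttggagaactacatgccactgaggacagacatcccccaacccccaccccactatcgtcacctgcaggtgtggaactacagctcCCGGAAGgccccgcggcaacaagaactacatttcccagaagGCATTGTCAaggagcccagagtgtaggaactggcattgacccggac
The window of Mrps14 held none of the 4 motifs. That of Mrpl9 held the motif of nuclear respiratory factor 1 at position -27 from the start site and that of YY1 at position 15. In Mrpl17 the respiratory factor motif began at -10 and the ETS motif at -237. The Mrpl30 window held an antioxidant response element at -93, and that of Mrpl34 an ETS motif at -37 and an antioxidant response element at position 4, on the other strand.

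Of the 78 members, 69 were found in the promoter table, with 75 promoters, and 42 of these held a match. Mrpl4, Mrpl13, Mrpl15, Mrpl19, Mrpl38, Mrpl54, Mrps28, Mrps34 and Mrps35 were not in the table. The ETS motif was in 34.7% of member promoters, against 8.86% of all 32851 promoters of the table and 11.9% of those of protein-coding genes. The YY1 motif was in 16.0% of member promoters, against 2.24% of all, and the motif of nuclear respiratory factor 1 in 9.33%, against 1.87%. Antioxidant response elements were in 18.7% of member promoters and 12.4% of all. Of protein-coding promoters, 3.12% held the YY1 motif, 2.62% that of nuclear respiratory factor 1 and 13.1% an antioxidant response element. In cytosolic ribosomal protein genes the shares were 36.0% for ETS, 6.67% for YY1, 4.0% for the respiratory factor and 20.0% for the element. In nuclear respiratory chain genes they were 22.5%, 9.86%, 12.7% and 14.1% in the same order. No matches overlapped each other in a member promoter. A match is a string of letters and not a bound site. The median fold change of members with and without a motif is given with no test. On the log2 scale it was 0.21 in the 7 tested members with the respiratory factor motif and 0.18 in the 61 without, and 0.18 both in the 25 with the ETS motif and in the 43 without. It was -0.03 in the 11 members with the YY1 motif and 0.18 in the 57 without. The 14 members with an antioxidant response element had a median of -0.06, and the 54 without one 0.21.

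The libraries held 22501208 to 34109018 reads on genes, with the lower totals in those labelled DDI2-KO. Levels are in CPM, a gene's share of the library size after TMM scaling in edgeR, in parts per 1000000. Reads on the targeted gene Ddi2 numbered 4749 and 3812 in the WT and 4068 and 3777 in the KO-labelled libraries (log2 fold change 0.28, standard error 0.17, adjusted p = 0.349 in edgeR). This count over the whole gene did not show a loss of Ddi2. Such a count can miss a lost short exon, and exons were not counted apart, so the labels were not checked. Hepatocyte markers summed to 162100 and 183340 CPM in WT and to 151950 and 154940 in the KO-labelled libraries, with none of 6 past the test. None of the marker genes of Kupffer cells, sinusoidal endothelium, stellate cells, bile duct or blood was at 0. Kupffer cell markers summed to 483 and 558 CPM in WT and to 595 and 696 in the KO-labelled libraries, with none of 5 past the test. Endothelial markers summed to 358 to 415 CPM in WT and to 359 in each KO-labelled library, stellate cell markers to 418 to 428 and 372 to 413, bile duct markers to 52.8 to 56.4 and 68.7 to 70.4, and erythroid markers to 93.3 to 179 and 60.6 to 71.1, with 1 endothelial and 1 erythroid marker past the test as lower. The Y-linked gene Ddx3y had 0 reads in all 4 libraries, and Xist, a nuclear RNA of the inactive X chromosome, had 17484 and 11533 reads in the WT and 1230 and 3288 in the KO-labelled libraries (log2 fold change -2.23, standard error 0.58, adjusted p = 0.120 in edgeR). Reads outside genes came to 4.70% and 5.11% of the gene reads in WT and to 2.53% and 3.65% in the KO-labelled libraries, and Malat1, another nuclear RNA, was lower there (log2 fold change -1.29, standard error 0.19, adjusted p = 0.0224 in edgeR). The part of these differences in the results below was not tested. In bulk liver, fewer cells of a type and less RNA per cell cannot be told apart.

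Members were of low to middle abundance. Together they took 0.163% and 0.177% of the gene reads in WT, and 0.208% and 0.192% in the KO-labelled libraries. Per kilobase of merged annotated exons, the level that allows genes to be compared, the median was 10.7 CPM per kilobase over large subunit members and 7.27 over small subunit members. Mrpl12, a protein of the flexible stalk that receives translation factors, had the highest level, with 34.0 and 43.8 CPM per kilobase in WT and 65.9 and 41.4 in the KO-labelled libraries. Its 4 values overlapped between the groups, and 1 KO-labelled library stood above the other 3. Mrpl27, whose bacterial counterpart lies near the peptidyl transferase centre, followed with 28.5 CPM per kilobase as the mean of the libraries, and Mrpl50, a protein found in mitochondrial ribosomes only, with 28.2. The order of these neighbours lay within the spread of their libraries. In the small subunit Mrps7, of the head, led with 21.1, before Mrps21 with 20.8 and Mrps2 with 16.9 CPM per kilobase. The order depended on the length used. Over the principal transcript alone, a length chosen after seeing the data, Mrpl42 (64.2 CPM per kilobase) stood before Mrpl12 (53.9), and Mrps21 (31.5) led the small subunit, with Mrps7 at 22.2.

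At the low end, Mrpl53 had 0 reads in all 4 libraries, which allows up to 0.133 CPM in the shallowest. Of its exon bases, 88.0% overlap another annotated gene on the same strand, where a count of unambiguous reads leaves reads out, so the 0 is no measure of its transcript. Mrpl53 alone failed the filter on low counts, and the other 77 members were tested. Mrpl23, at the rim of the exit tunnel, had 23, 33, 21 and 20 reads in WT replicates 1 and 2 and DDI2-KO replicates 1 and 2, or 0.684, 1.07, 0.811 and 0.870 CPM. Mrps36 had 70, 73, 41 and 38 reads in the same order. Its product is now assigned to the 2-oxoglutarate dehydrogenase complex and not to the ribosome.

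Among the 77 tested members, 51, or 66.2%, had a log2 fold change above 0 in the KO-labelled libraries and 26 below 0. Over all tested genes 48.7% were above 0. A single member, Mrps14, passed an adjusted p of 0.05 in edgeR's quasi-likelihood test, where 2.53% of all 13699 genes tested passed and 1.33% passed as higher. The share of members called, 1.30%, was near that background. Of all calls, 52.6% were higher, against 39.7% with upper-quartile scaling. With limma-voom 1 member passed against 0.993% of all genes, and with DESeq2 5 members against 6.86%. For 33 members the KO-labelled libraries were both above both WT libraries, or 42.9%, against 28.0% of all tested genes. They lay below for 12, or 15.6%, against 27.7%, and the groups overlapped for 32. An unadjusted p under 0.05 in edgeR in the higher direction was found for 15 of 77 members, against 1647 of 13699 genes (12.0%). In the lower direction it was found for 2 of 77 members, against 1569 of 13699 genes (11.5%). The standard error of a member's log2 fold change had a median of 0.18, so that a difference of 0.2 in a single member was not detectable with 2 libraries a group.

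**Figure D1:**
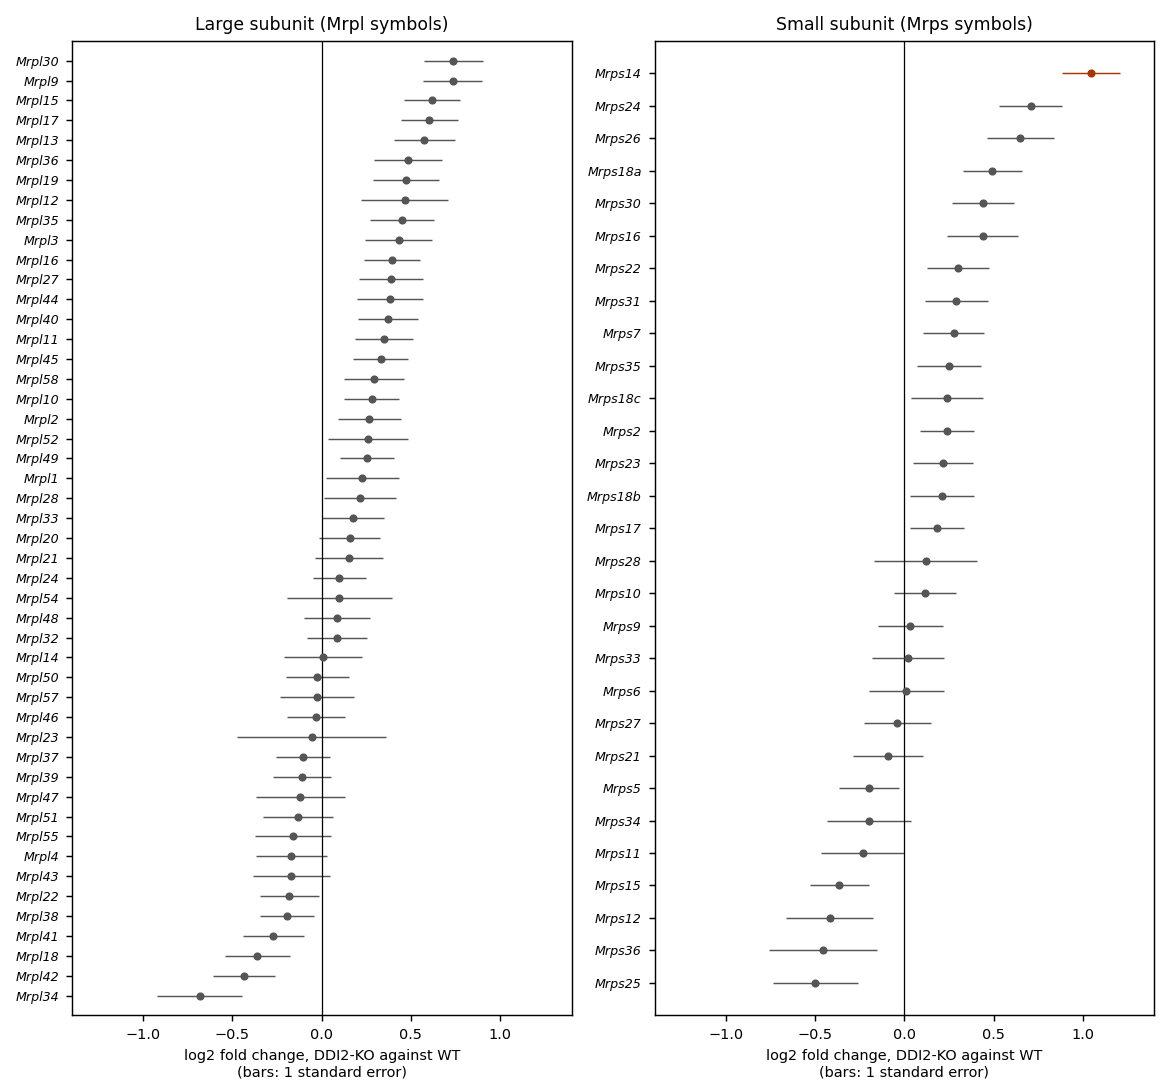
The log2 fold change of each of the 77 tested members, KO-labelled libraries against WT, is plotted on the horizontal axis with a bar of 1 standard error, for 48 large subunit genes on the left and 29 small subunit genes on the right. Mrps14, in red, is the 1 gene with an adjusted p under 0.05, and the values run from -0.68 for Mrpl34 to 1.04 for Mrps14.

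Mrps14 (ENSMUSG00000058267, chr1:160195215-160202170 of GRCm38, plus strand) encodes a protein of the small subunit head that has a bacterial counterpart. Its reads numbered 492 and 504 in the WT and 822 and 737 in the KO-labelled libraries. After scaling these were 14.6 and 16.3 CPM in WT (15.5 ± 1.19, SD, n = 2) and 31.8 and 32.1 CPM in the KO-labelled libraries (31.9 ± 0.222, SD, n = 2). Both KO-labelled libraries stood well above both WT libraries. Mrps14 rose by 1.04 on the log2 scale (standard error 0.16, adjusted p = 0.0295 in edgeR), a 2.06-fold change, and was the 1 member that reached 2-fold. It passed in 15 of 17 alternative analyses. Without WT replicate 1 its adjusted p was 0.137 (log2 fold change 0.97), and without WT replicate 2 it was 0.0705 (log2 fold change 1.12), both in edgeR. Of the 50-base stretches of its transcripts, 2.58% also occur in other genes, and its exons overlap no other gene.

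The next members in the order of fold change did not pass the test in the main analysis. Mrpl30, the counterpart of a bacterial large subunit protein, had 27.6 and 32.9 CPM in WT and 50.4 in each KO-labelled library (log2 fold change 0.74, adjusted p = 0.0560 in edgeR). Mrpl9, another large subunit protein with a bacterial counterpart, had 24.2 and 28.4 CPM against 44.9 and 42.5 (0.73, adjusted p = 0.0572 in edgeR). For both genes the groups were apart by more than the spread within either. Mrps24, the counterpart of the bacterial protein at the mRNA entry, had 10.4 and 11.0 CPM in WT and 18.0 and 16.9 in the KO-labelled libraries (0.71, adjusted p = 0.0700 in edgeR). Of the exon bases of Mrps24, 15.4% overlap Urgcp on the same strand. Mrps26, a small subunit protein without a bacterial counterpart, had 7.73 and 7.74 CPM in WT and 12.5 and 11.7 in the KO-labelled libraries (0.65, adjusted p = 0.0936 in edgeR).

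Of the large subunit, Mrpl15 had 47.4 and 48.0 CPM in WT and 78.8 and 67.6 in the KO-labelled libraries (log2 fold change 0.62, adjusted p = 0.0744 in edgeR). Mrpl17, at the rim of the exit tunnel, had 28.5 and 29.7 CPM against 47.2 and 41.1 (0.60, adjusted p = 0.0790 in edgeR), and Mrpl13 had 21.4 and 24.95 CPM against 32.2 and 36.9 (0.57, adjusted p = 0.1005 in edgeR). In all 8 members at the top of the order the groups did not overlap, which their choice by fold change favours. Members with an adjusted p between 0.05 and 0.10 numbered 6, and all 6 were higher in the KO-labelled libraries. All tested genes in that range were not counted, so the 6 have no background beside them.

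At the other end, Mrpl34, the counterpart of a small bacterial large subunit protein, had 8.24 and 8.45 CPM in WT and 6.10 and 4.26 in the KO-labelled libraries (log2 fold change -0.68, standard error 0.24, adjusted p = 0.139 in edgeR). Mrps25, found in mitochondrial ribosomes only, had 11.1 and 12.2 CPM against 9.89 and 6.53 (-0.50, adjusted p = 0.246 in edgeR). Exons of Nr2c2, read from the other strand, cover 69.8% of the exon bases of Mrps25, and the strand setting of the counting is not given in the sources used here, so its count is uncertain. Mrps36 stood at 2.08 and 2.36 CPM in WT and 1.58 and 1.65 in the KO-labelled libraries (-0.46, adjusted p = 0.403 in edgeR), and 36.2% of its 50-base stretches occur in other genes, among them its pseudogenes. Mrpl42, which has no bacterial counterpart, had 47.3 and 51.1 CPM against 40.6 and 32.1 (-0.44, adjusted p = 0.182 in edgeR).

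The remaining 4 of the 8 lowest were Mrps12, with a log2 fold change of -0.42, Mrps15 (-0.36), Mrpl18 (-0.36) and Mrpl41 (-0.27). Mrps12, a protein of the decoding centre, had 12.8 and 10.8 CPM in WT and 10.7 and 7.01 in the KO-labelled libraries, so that its groups nearly met. Mrps15 had 28.3 and 30.5 CPM against 21.4 and 24.3, and Mrpl18 had 26.3 and 30.5 CPM against 24.6 and 19.6. None of the 8 lowest passed the test. In all 8 both KO-labelled libraries were below both WT libraries, which their choice by fold change favours. For 6 of these 8, the lower value of the KO-labelled libraries was in replicate 2. The 44 tested members outside the lists and ends of the order had log2 fold changes from -0.20 for Mrps34 to 0.48 for Mrpl36, 33 of them above 0 and 11 below. Their groups were apart for 18, with the KO-labelled libraries above in 16 and below in 2. Over all tested genes these libraries were above for 28.0% and below for 27.7%. The lowest adjusted p of the 44 members was 0.175 in edgeR, for Mrpl19.

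**Figure D2:**
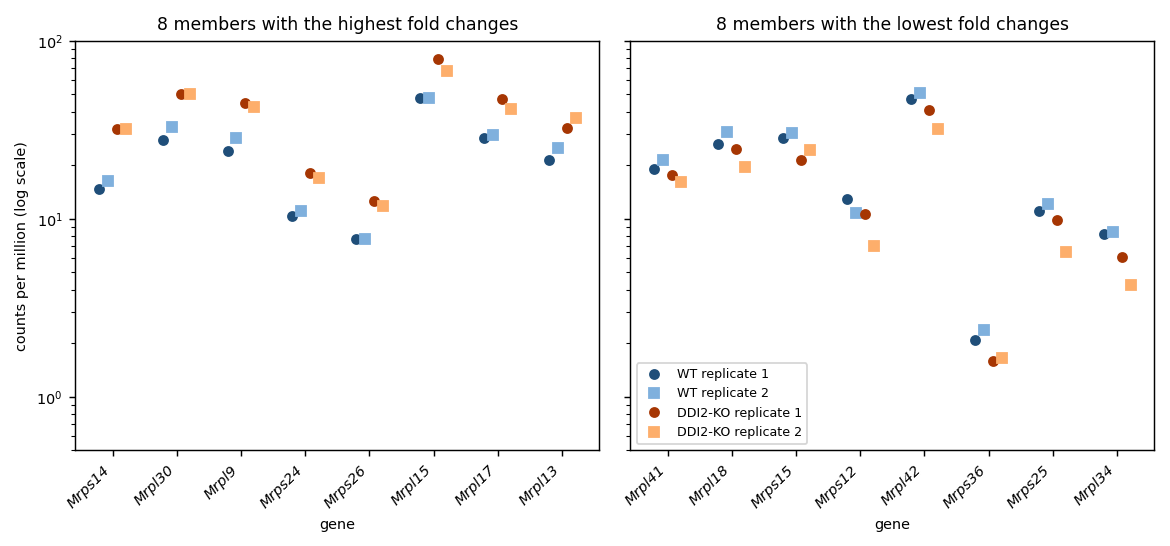
The vertical axis gives the level in CPM, on a log scale, of the 8 members with the highest and the 8 with the lowest fold changes, with 1 point for each of the 4 libraries. In the left panel both DDI2-KO points lie above both WT points for each gene, and in the right panel both lie below, with Mrps36 the least abundant at 1.58 to 2.36 CPM.

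The large and small subunits had nearly the same median. It was 0.17 on the log2 scale over 48 large subunit members, of which 31 were above 0 and 17 below, and 0.18 over 29 small subunit members, of which 20 were above 0 and 9 below. The medians differed by 0.016, against a median of -0.01 over all tested genes. Both subunit medians lay above 0 in each of the 17 alternatives, from 0.11 to 0.27 for the large and from 0.09 to 0.28 for the small subunit, and the small subunit had the higher median in 12 of them. The groups did not overlap, with the KO-labelled libraries above, for 21 large and 12 small subunit members, or 43.8% and 41.4%. Over all tested genes that share was 28.0%. The groups did not overlap in the other direction for 7 and 5, or 14.6% and 17.2%, against 27.7% of all tested genes. Mrps18a and Mrps30 have small subunit symbols but lie in the large subunit of the solved structures. Mrps18a had 22.8 and 20.8 CPM in WT and 32.7 and 28.7 in the KO-labelled libraries (log2 fold change 0.49, adjusted p = 0.130 in edgeR), and Mrps30 had 11.4 and 12.2 CPM against 16.0 in each (0.44, adjusted p = 0.178 in edgeR). With these in the large subunit and Mrps36 left out, the medians were 0.19 for 50 large and 0.15 for 26 small subunit members.

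**Figure D3:**
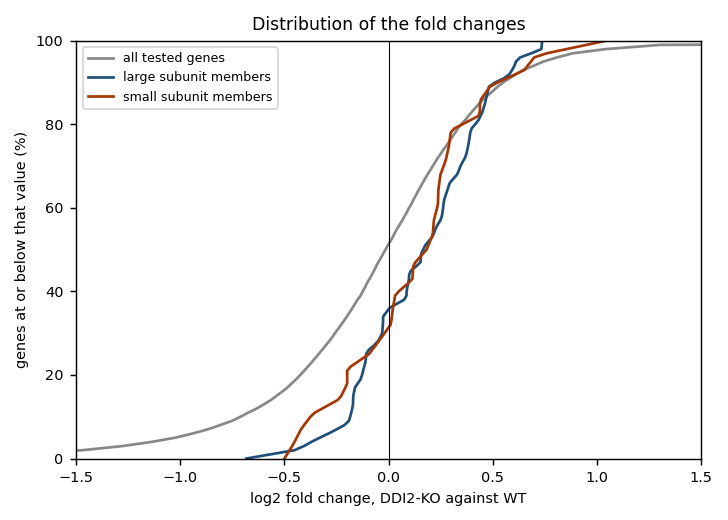
The share of genes at or below each log2 fold change, in percent, is drawn for 48 large subunit members, 29 small subunit members and all 13699 tested genes. The curves of both subunits lie to the right of that of all genes in the lower and middle range, cross to its left at the upper end and run near each other, with medians of 0.17, 0.18 and -0.01.

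Summed over their members, large subunit genes had 1126 and 1236 CPM in WT (1181 ± 77.9, SD, n = 2) and 1399 and 1294 CPM in the KO-labelled libraries (1346 ± 74.1, SD, n = 2). Small subunit genes had 530.8 and 571 CPM in WT (551 ± 28.4, SD, n = 2) and 659 and 584 CPM in the KO-labelled libraries (622 ± 52.8, SD, n = 2). For both subunits WT replicate 1 was lowest and DDI2-KO replicate 1 highest, and in both the nearest libraries of the 2 groups lay closer together than did the WT libraries. The ratio of the large to the small sum was 2.12 and 2.16 in WT and 2.12 and 2.21 in the KO-labelled libraries, so that the subunits kept their proportion within the spread between libraries. WT replicate 1 gave the lowest of the 4 values for 43 members, and DDI2-KO replicate 1 the highest for 37. Within the groups, replicate 1 lay above replicate 2 for 55 of 77 members in the KO-labelled libraries and for 7 in WT.

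**Figure D4:**
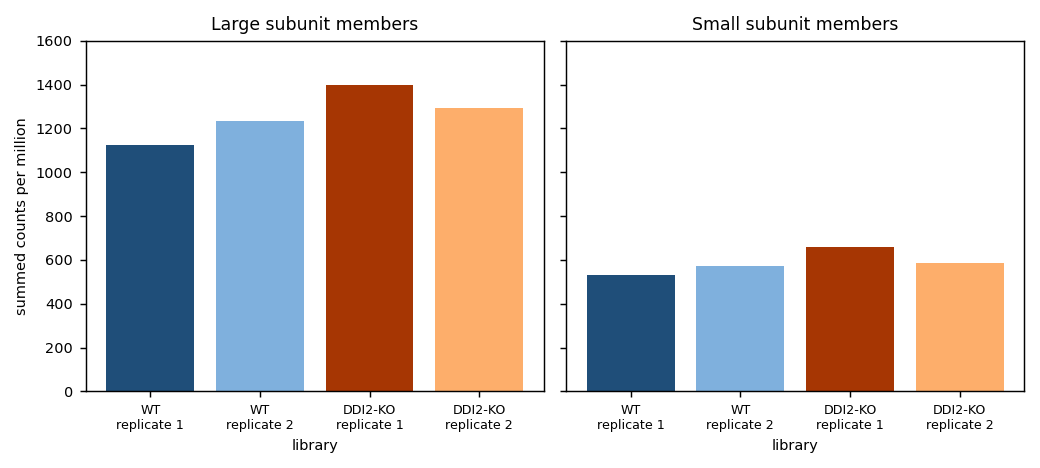
Bars from 0 give the CPM summed over large subunit members (left) and small subunit members (right) in each of the 4 libraries. The sums of the large subunit run from 1126 in WT replicate 1 to 1399 in DDI2-KO replicate 1, and those of the small subunit from 530.8 to 659 in the same libraries.

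By their systematic names, 46 tested members are classed as conserved with bacteria and 30 as mitochondrion-specific. Of the former 34 were above 0 and 12 below, with a median log2 fold change of 0.20. Among the latter 17 were above and 13 below, with a median of 0.09. The order of these medians was not the same in both subunits. In the large subunit the 30 conserved members had a median of 0.25, with 23 above 0, and the 18 mitochondrion-specific members one of -0.03, with 8 above 0. In the small subunit the 16 conserved members had a median of 0.12 and the 12 mitochondrion-specific members one of 0.23. These medians are descriptions with no test. The classes follow the names, so Mrps18c counts as conserved while Mrps18a and Mrps18b count as mitochondrion-specific.

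By place in the ribosome, the 3 proteins of the stalk, Mrpl10, Mrpl11 and Mrpl12, all had values above 0, with log2 fold changes of 0.28, 0.35 and 0.46, and none passed the test. Mrpl11 had 17.3 and 18.8 CPM in WT and 23.3 and 22.7 in the KO-labelled libraries. Mrpl10, which anchors the stalk, had 41.3 and 38.6 CPM against 50.3 and 46.7. In these 2 genes the groups were apart, whereas Mrpl12 had 52.1 and 67.1 CPM against 101 and 63.4 and overlapped. Around the exit tunnel, Mrpl17 (0.60), Mrpl45 (0.33), which ties the ribosome to the inner membrane, and Mrpl24 (0.10) were above 0, and Mrpl22 (-0.18), Mrpl47 (-0.12) and Mrpl23 (-0.06) below. Of 5 listed proteins at the decoding site and the mRNA channel, Mrps7 (0.27) and Mrps2 (0.24) were above 0. Mrps5 (-0.20), Mrps11 (-0.23) and Mrps12 (-0.42) were below. The tunnel list had a median of 0.02 and the decoding list one of -0.20. Mrps24 (0.71), placed at the mRNA entry above, was not on the decoding list, so these medians depend on the genes listed.

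Members lie on 17 chromosomes, with 11 genes on chromosome 11. The nearest pair is Mrpl46 on the minus and Mrps11 on the plus strand of chromosome 7, which overlap head to head by 412 bases. Mrpl46 had 19.0 and 20.3 CPM in WT and 19.3 and 19.1 in the KO-labelled libraries (log2 fold change -0.03), and Mrps11 had 7.41 and 6.51 CPM against 6.72 and 5.09 (-0.23). Neither gene separated the groups, and Mrpl46 was level in all 4 libraries. Reads shared with other genes could touch several members, since 22 have over 10% of their 50-base stretches in other genes and 18 have over 10% of their exon bases under another gene on either strand.

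The Spearman correlation of the log2 fold change over 77 members, which share their libraries and are no replicates, was 0.28 for length and -0.26 for GC content. Over all tested genes the values were -0.12 and 0.05. The ratio of DDI2-KO replicate 2 to replicate 1 was correlated with GC content at -0.48 both in the members and in all genes, a larger correlation than that of the fold change between the groups. With offsets for length and GC content the median was 0.13 for the large and 0.09 for the small subunit, and 6 members passed an adjusted p of 0.05 in edgeR, against 5.64% of all genes tested in that way.

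**Figure D5:**
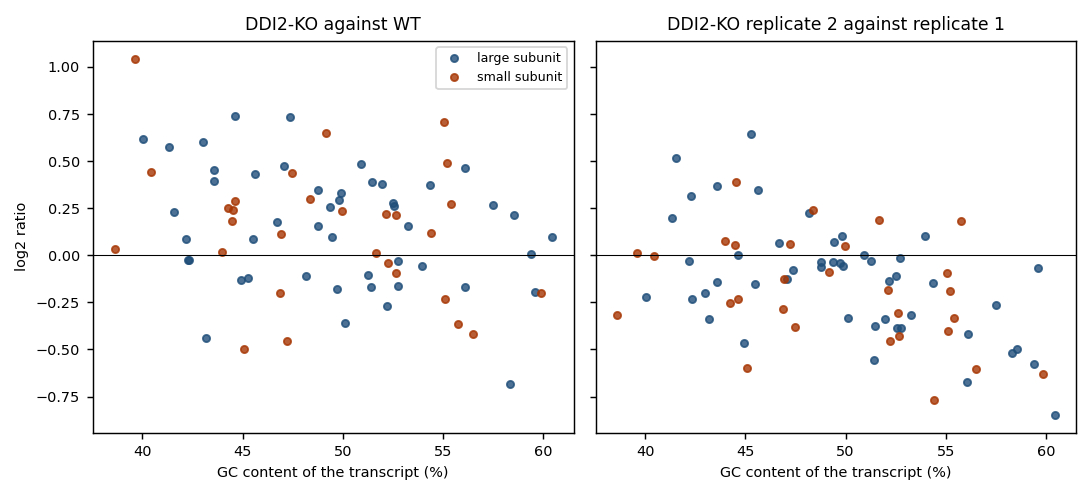
Each point is a tested member, placed by the GC content of its transcript in percent and by a log2 ratio, of the KO-labelled libraries to WT on the left and of DDI2-KO replicate 2 to replicate 1 on the right. The right panel falls with GC content (Spearman correlation -0.48), and the left panel less so (-0.26).

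For the other parts of the mitochondrial translation system, calls are set beside the 2.53% of all tested genes that passed. Of 25 assembly factors, 20 were above 0 and 5 below, with a median log2 fold change of 0.29. The test was passed by 1, or 4%, near that background. Nsun4, an rRNA methyltransferase that acts with MTERF4 in the joining of the subunits, rose by 0.89 on the log2 scale (adjusted p = 0.0445 in edgeR), from 13.0 and 14.1 CPM in WT to 22.9 and 27.3 in the KO-labelled libraries. The lowest of the list was Mpv17l2, an inner membrane protein known for a role in ribosome assembly, with 15.5 and 15.0 CPM against 9.04 and 8.18 (-0.82, adjusted p = 0.0566 in edgeR). These 2 genes of 1 process lay on opposite sides, each with groups that did not overlap, which their choice as ends of the list favours. The KO-labelled libraries were above both WT libraries for 15 of the 25 (60%) and below for 4 (16%). Over all tested genes these shares were 28.0% and 27.7%.

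Of 5 further ribosomal proteins without an Mrpl or Mrps symbol, 3 were above 0, from Dap3 of the small subunit (log2 fold change 0.69, adjusted p = 0.0833 in edgeR) to Gadd45gip1 of the large subunit (-0.40, adjusted p = 0.394 in edgeR). Dap3 had 20.9 and 22.9 CPM in WT and 40.3 and 30.3 in the KO-labelled libraries. Of 16 translation factors, 12 were above 0, with a median of 0.12 and none past the test, from the elongation factor Tsfm (0.65) to the initiation factor Mtif2 (-0.34). Aminoacyl-tRNA synthetases of mitochondria numbered 20, with 13 above 0, a median of 0.17 and none past the test, from Yars2 (0.78) to Aars2 (-0.36).

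Regulators of mitochondrial transcription and biogenesis stood otherwise. Of 16, 5 were above 0, or 31.25%, against 48.7% of all tested genes. Their median log2 fold change was -0.24, and none passed the test. Tfam, which packages mitochondrial DNA and helps to start its transcription, had 33.8 and 36.1 CPM in WT and 52.3 and 56.0 in the KO-labelled libraries (0.63, adjusted p = 0.0668 in edgeR). Ppargc1b, a coactivator of mitochondrial biogenesis, was lowest, with 3.33 and 4.24 CPM against 1.85 and 0.740 (-1.53, adjusted p = 0.0868 in edgeR). The ribosomal RNAs of the mitochondrial ribosome could not be followed, since mt-Rnr1 and mt-Rnr2 had at most 5 reads in any library.

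The members, with a median log2 fold change of 0.18, can be set beside the genes of the cytosolic ribosome and of the respiratory chain. Of the members 1.30% passed the test, and of all tested genes 2.53%. Cytosolic ribosomal protein genes had a median log2 fold change of 0.30 over 78 genes, with 57 above 0. Of the 78 genes, 13, or 16.7%, passed the test, 11 of them as higher. Nuclear genes of the respiratory chain had a median of 0.44 over 76 genes, with 63 above 0. Of the 76 genes, 8, or 10.5%, passed the test, all as higher. The products of the mitochondrial ribosome are the proteins that mitochondrial DNA encodes. Of 13 genes for these proteins in the count files, only 7 passed the filter on low counts and were tested. Of these 7, 6 were below 0, with a median of -0.79, and 3, or 42.9%, passed the test as lower. Reads on mitochondrially encoded genes made up 10.5% and 9.91% of gene reads in WT and 5.27% and 6.34% in the KO-labelled libraries. These differences between families were not tested.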

How the data were processed

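RNA-seq of 4 liver libraries was analysed. The authors deposited raw counts of reads per Ensembl gene, not normalized. The labels name the Illumina TruSeq Stranded mRNA kit. The submitters' processing notes name cutadapt 1.8, STAR 2.5.2b, HTSeq 0.6.1 and build GRCm38. The annotation release and strand setting of the counting are not given in the sources used here. Groups and replicate numbers came from the sample titles. Symbols, coordinates and lengths are from GENCODE for GRCm38, which holds 48349 of the 48709 identifiers. The summary lines that follow the genes were not used as genes.

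Genotypes were compared over all genes by the quasi-likelihood test of edgeR 4.0.16 (R 4.3.3) after filterByExpr and TMM scaling, with robust estimation and Benjamini-Hochberg adjustment over the 13699 genes tested. The study's text describes limma, which was run as an alternative. A standard error is the size of the log2 fold change over the square root of the F statistic. Levels per kilobase are CPM over the length of merged exons. The scripts were tested on simulated data. No library was a copy of another, since replicates differed beyond counting error, with chi-square over degrees of freedom of 64.7 in WT and 34.8 in DDI2-KO. Precision is limited by the 2 libraries a group and, for members with few reads, by the depth, from 22501208 to 34109018 reads on genes.

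The members and lists were chosen with earlier results of these data known. Members named with values are those with an adjusted p under 0.05, the 8 highest and 8 lowest by log2 fold change, the 3 most abundant per length in each subunit, those that failed the filter, those of the stalk, tunnel and decoding lists, and Mrps18a, Mrps30 and Mrps36. Mrpl19, Mrpl36 and Mrps34, as the ends of the other members, and Mrpl46, as the neighbour of Mrps11, were added after their values were seen, as were Ddx3y, Xist and Malat1. From other lists, the genes past the test and the highest and lowest are named. Alternatives were RLE and upper-quartile factors, library totals, DESeq2 1.42.0, voom and trend of limma 3.58.1 (prior count 2), no robust estimation, no filter, a filter at a mean of 1 CPM, the replicate number as a block, each library left out, scaling without mitochondrially encoded genes and Alb, offsets for length and GC content (lowess span 0.3), and other thresholds.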

Additional observations from a re-analysis of the deposited data

Results flagged for a closer look

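Reads that the counting program could not assign to 1 gene, which no comparison above uses, came to 3.49% of gene reads in DDI2-KO replicate 1 and 3.66% in replicate 2, above the 2.50% and 2.54% of the WT libraries. Such reads are left out of the counts of members whose exons overlap other genes. Their part in the results was not tested.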

How the results depend on the processing

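The number of members past the adjusted p was 1 in the main analysis. It was 3 with library totals only (Mrpl30, Mrpl9 and Mrps14), 5 with DESeq2, 7 without a filter on low counts, 6 with offsets for length and GC content, 7 at an adjusted p under 0.10 and 0 at one under 0.01, and 0 to 4 when each library was left out. Over all genes 346 passed in the main analysis. With library totals only the count was 378, or 2.76% of all tested genes. It was 940 with DESeq2, 136 with limma-voom, 139 with limma-trend and 1544 without the filter. Without robust estimation it was 152, and with the offsets 771. Without DDI2-KO replicate 2 the counts were 4 members and 631 genes, without WT replicate 1 they were 0 and 153, and without WT replicate 2 they were 0 and 203. The cause was not tested. At an adjusted p under 0.10 or under 0.01, no count over all genes was made.

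The replicate numbers were not shown to pair the libraries, since deviations of the WT and DDI2-KO libraries numbered 1 were correlated at 0.059 only. With the replicate block 5 members (Mrpl15, Mrpl30, Mrpl9, Mrps14 and Mrps24) and 1108 genes passed, and with the block and the offsets together 1 member (Mrps14) and 208 genes.

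The median log2 fold change ranged from 0.13 to 0.27 for the large subunit and from 0.10 to 0.28 for the small subunit with each library left out. Both upper values came without WT replicate 2, and the lower value of the small subunit without DDI2-KO replicate 1. For the small subunit it was 0.086 with the offsets, with or without the block. Some members near 0 changed sign. Mrpl50 was at 0.024 with library totals only. With each library left out, its log2 fold change ran from -0.18 to 0.13, above 0 without WT replicate 2 and without DDI2-KO replicate 1. That of Mrps21 ran from -0.32 to 0.11 (above 0 without DDI2-KO replicate 2), that of Mrpl23 from -0.34 to 0.29 (without WT replicate 2) and that of Mrpl47 from -0.47 to 0.17 (without DDI2-KO replicate 1). Mrpl24 was at -0.055 with the offsets and at -0.057 with the block added. Of all 78 members, 39 were above 0 in each of the 17 alternatives and 13 below 0. Depth limits Mrpl23 and Mrps36, and no library gives a value for Mrpl53.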
